A study of Danio rerio with 4 samples.

Results

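The epidermal growth factor (EGF) receptor family and its ligands were followed in whole zebrafish embryos that carried an oncogenic human RAS transgene. The members were 14 array features of 37176. They were chosen by name: 2 features had the zebrafish symbol erbb2 or erbb3b in the authors' annotation, 2 had an older name of egfra or tgfa, and 10 had no zebrafish symbol but the human ortholog name EGFR, ERBB3, ERBB4, HBEGF or ERRFI1. A feature is the array's measurement of a single transcript model, and each feature was kept separate. The ortholog name does not tell which zebrafish copy a feature measures, so the HBEGF features may belong to hbegfa or hbegfb, the ERRFI1 features to errfi1a or errfi1b, and the ERBB4 features to erbb4a or erbb4b. No feature was taken for AREG or EREG, the remaining ligands that the choice covered.

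Receptors of this family are membrane tyrosine kinases that pair up when an EGF-like ligand binds, and the pairs activate RAS and the ERK, PI3-kinase and STAT pathways. Their ligands are made as membrane precursors, and metalloproteases and rhomboid proteases release them. ERRFI1, also called MIG-6, binds the active receptor kinase and blocks it, and in mammals growth factor signalling through ERK induces it. In zebrafish erbb3b is known for guiding Schwann cell precursors along the nerves and for the pigment cell lineage.

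Total RNA of whole embryos was hybridised to 4 arrays with Cy3 as the label, 2 arrays per genotype. Transgenic embryos were Tg(hsp70-hRASG12V), a line with mutant human RAS under the heat-inducible hsp70 promoter that the design text calls heterogeneous, and the control embryos were wild type. A heat shock of 1 h at 37 °C was given to both genotypes 24 hours after fertilisation; they were then held at 28.5 °C, and RNA was taken at 30 hours. The design text gives a pool of 50 embryos per array and 3 biological replicates. The series holds only 2 arrays per genotype, and all of them were analysed here. The promoter restricts the transgene to no particular tissue. The titles tag the arrays ras and ab without saying whether the genotypes shared a clutch or a background, so a difference in either cannot be told apart from that of the transgene. The human transcript itself was not analysed here. In RNA of whole embryos, fewer cells of a type and less RNA per cell cannot be told apart.

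Values are the authors' log2 expression values, and a fold change is the transgenic mean minus the wild-type mean on that scale, with the standard error (SE) of limma. Array medians lay between 9.50 and 9.62, and Pearson's r across features was 0.996 between the transgenic arrays and 0.988 between the wild-type arrays. The files hold no detection call; a value under the 25th percentile of its array, which lay between 7.05 and 7.17, is called dim here, and how much of such a value is background is not given. Over all features, 17.6% passed an adjusted p of 0.05 (limma with Benjamini-Hochberg adjustment over all features), 10.3% higher and 7.28% lower in the transgenic embryos. The split was 3830 higher and 2708 lower, and it was 3316 higher and 3630 lower with each array centred on its median.

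Of the 14 features, 6 rose, 0 fell and 8 did not pass. The features that rose were both ERRFI1 features, 1 of 2 HBEGF features, 2 of 3 ERBB4 features and 1 of 2 erbb3b features, while the egfra, EGFR, erbb2 and tgfa features did not pass. At an unadjusted p of 0.05, limma gave 8 higher and 2 lower, beside 7469 higher and 6257 lower of all 37176 features. The median log2 fold change over the 14 features was 0.90, against 0.01 over all features. The groups did not overlap in 12 features, 10 with both transgenic arrays higher and 2 with both lower; over all features 67.6% did not overlap, 34.4% with the transgenic arrays higher and 33.1% with them lower. In limma the members' calls did not hold without either transgenic array in turn. The same was so for every other feature with a call, so this loss is not particular to the members. The 6 features that rose did not overlap between the genotypes, so leaving out 1 array could not change their direction. A fit with 1 array left in a genotype takes its spread from the other genotype alone, so its calls were not read as support.

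**Figure D1:**
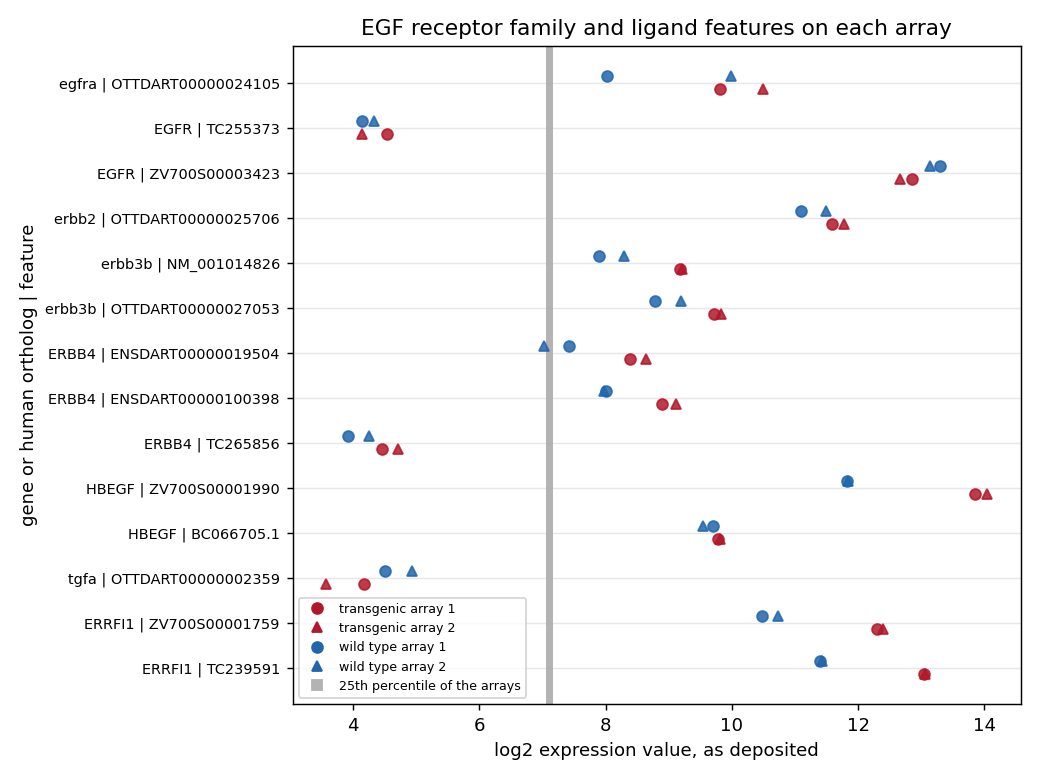
Log2 expression value (x axis, as deposited) of the 14 EGF receptor family and ligand features on each of the 4 arrays, ordered by receptor, ligand and inhibitor; each symbol is 1 array and the grey band spans the 25th percentiles of the arrays (7.05 to 7.17). Both transgenic arrays stand at least 1.57 above both wild-type arrays in the 2 ERRFI1 features and HBEGF feature ZV700S00001990, and the 3 features at the far left are dim on every array.

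Among the ligands, the HBEGF feature ZV700S00001990 had the largest rise of the 14 features. HBEGF is heparin-binding EGF-like growth factor, which in mammals binds EGFR and ERBB4. Its log2 values were 13.85 and 14.05 in the transgenic arrays and 11.82 and 11.84 in the wild-type arrays. Each transgenic array lay at least 2.02 above each wild-type array, far beyond the spread within either genotype (SD 0.136 and 0.0147, n = 2 arrays each). The log2 fold change was 2.12 ± 0.15 (SE, n = 2 arrays per genotype), a 4.35-fold rise (limma adjusted p = 0.00911).

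The other HBEGF feature, BC066705.1, did not pass. Its values were 9.78 and 9.81 in the transgenic arrays against 9.71 and 9.54 in the wild-type arrays, so that the genotypes were separated by only 0.08 (0.17 ± 0.15, limma adjusted p = 0.434). Whether the HBEGF features differ in response was not tested, and which hbegf copy each measures is not given in the files. A further feature with the HBEGF ortholog, annotated si:ch211-101j19.2, was not taken as a member because it has a symbol of its own. It read 6.99 and 6.98 in the transgenic arrays and 5.53 and 7.30 in the wild-type arrays, which overlapped (0.57 ± 0.58, limma adjusted p = 0.518). Its wild-type arrays lay further apart than the genotypes did.

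The tgfa feature, for transforming growth factor alpha, a ligand of EGFR, was dim on all 4 arrays. It read 4.17 and 3.56 in the transgenic arrays and 4.50 and 4.94 in the wild-type arrays. Both transgenic arrays were lower, by at least 0.33, but the difference did not pass (-0.85 ± 0.27, limma adjusted p = 0.0951). It was -0.24 on the log2(value + 50) scale and -0.54 without transgenic replicate 2.

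The inhibitor ERRFI1 was measured by 2 member features, and both rose. Feature ZV700S00001759 read 12.30 and 12.39 in the transgenic arrays and 10.47 and 10.73 in the wild-type arrays, a rise of 1.74 ± 0.16 or 3.35-fold (limma adjusted p = 0.00952). Feature TC239591 read 13.04 and 13.06 against 11.40 and 11.43, a rise of 1.64 ± 0.14 or 3.11-fold (limma adjusted p = 0.00911). Replicates of TC239591 differed by hundredths of a log2 unit in both genotypes (SD 0.0182 and 0.0173, n = 2 each), while its genotypes were at least 1.61 apart.

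A further inhibitor feature, ZV700S00001760, has the ortholog name MIG-6, the other name of ERRFI1, and was therefore not taken by the choice of names. Its values of 10.57 and 10.91 in the transgenic arrays and 8.38 and 8.75 in the wild-type arrays did not overlap. It rose by 2.18 ± 0.21, or 4.52-fold (limma adjusted p = 0.0102). The inhibitor features may measure overlapping parts of the same transcript, so they do not count as independent genes.

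The receptor gene egfra encodes an EGF receptor of zebrafish. Its feature had the widest replicate spread of all 14 features. It read 9.81 and 10.49 in the transgenic arrays and 8.02 and 9.98 in the wild-type arrays, so wild-type replicate 2 lay above transgenic replicate 1. The difference of 1.15 ± 0.67 did not pass (limma adjusted p = 0.277). The result rested on the wild-type array kept: without wild-type replicate 2 the difference was 2.13, and without wild-type replicate 1 it was 0.17. In the authors' deposited table its q-value is listed as 0.

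Neither EGFR feature without a symbol passed. Feature ZV700S00003423 read 12.85 and 12.66 in the transgenic arrays and 13.30 and 13.14 in the wild-type arrays, and both transgenic arrays were lower, by at least 0.29 (-0.46 ± 0.16, limma adjusted p = 0.103). It passed with an intensity trend in the variance prior (limma adjusted p = 0.0279), and also when features below the median level were left out (limma adjusted p = 0.0445). It did not pass in the other limma fits to all 4 arrays, at adjusted p between 0.0681 and 0.106. Feature TC255373 was dim on every array, with values between 4.13 and 4.54 that overlapped (0.11 ± 0.19, limma adjusted p = 0.712). The 3 EGFR-like features that the choice of names left out, a pair annotated EGFR (2 of 2) and LOC571431, did not pass either, with log2 fold changes between 0.15 and 0.27, and 2 of them were dim on all arrays.

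ErbB2 has no known ligand of its own and acts as the partner of the other receptors. The erbb2 feature read 11.58 and 11.78 in the transgenic arrays and 11.10 and 11.48 in the wild-type arrays. The transgenic arrays were higher by a margin of 0.09, smaller than the spread within the wild-type group (SD 0.273, n = 2). The difference of 0.39 ± 0.19 did not pass (limma adjusted p = 0.214). It was 0.19 without wild-type replicate 1 and 0.58 without wild-type replicate 2.

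ErbB3 binds neuregulins, has little kinase activity and signals through its partner. The erbb3b feature NM_001014826 rose by 1.1 ± 0.18, or 2.14-fold (limma adjusted p = 0.025), with values of 9.17 and 9.21 in the transgenic arrays against 7.89 and 8.29 in the wild-type arrays. The other erbb3b feature, OTTDART00000027053, read 9.72 and 9.83 against 8.78 and 9.20. Its transgenic arrays were also both higher, but the difference of 0.79 ± 0.19 fell just short of the threshold (limma adjusted p = 0.0528). It passed with the replicate number as a block (limma adjusted p = 0.0427). It also passed with an intensity trend, with features below the 25th percentile left out and with log2(value + 50), at adjusted p between 0.0295 and 0.0451 in limma. It did not pass under quantile normalization, median centring or a robust prior, at adjusted p between 0.0557 and 0.0598 in limma. LOC566224, a feature with the ERBB3 ortholog that the choice of names left out, overlapped between genotypes (0.41 ± 0.32, limma adjusted p = 0.4).

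ErbB4 is a receptor of neuregulins and, in mammals, of HBEGF. Feature ENSDART00000019504 rose by 1.29 ± 0.20, or 2.45-fold (limma adjusted p = 0.0214). It read 8.38 and 8.64 in the transgenic arrays and 7.41 and 7.02 in the wild-type arrays, the last of which was dim, so the size of the rise is uncertain. Feature ENSDART00000100398 read 8.90 and 9.11 against 8.01 and 7.98 and rose by 1.01 ± 0.15, or 2.01-fold (limma adjusted p = 0.0205). Both features separated the genotypes by at least 0.89. They may measure the same erbb4 transcript, so they do not count as independent genes.

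Other ERBB4 features did not pass. TC265856 was dim on every array, at 4.46 and 4.71 in the transgenic and 3.92 and 4.25 in the wild-type arrays (0.50 ± 0.19, limma adjusted p = 0.127). Its difference was 0.34 without wild-type replicate 1 and 0.67 without wild-type replicate 2. ERBB4 (1 of 2), which has a symbol and is no member, was dim as well and differed by 0.01 ± 0.17 (limma adjusted p = 0.975). Its difference was -0.08 under quantile normalization and under median centring.

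**Figure D2:**
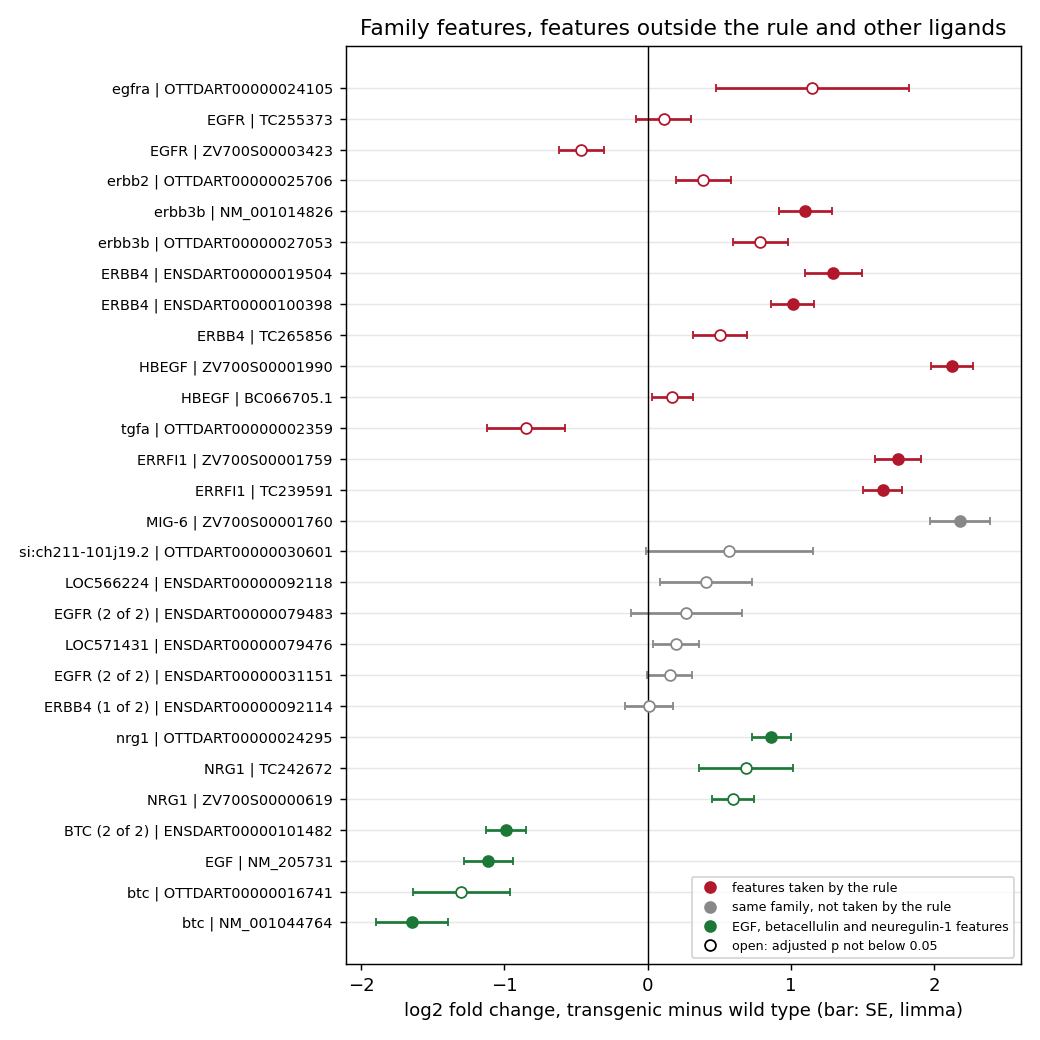
Log2 fold change, transgenic minus wild type (x axis), with its SE from limma as a bar, for the 14 member features (red), 7 features of the same family that the choice of names left out (grey) and 7 features of EGF, betacellulin and neuregulin-1 (green). Filled points passed an adjusted p of 0.05. The rises are led by the inhibitor features and HBEGF feature ZV700S00001990 (1.64 to 2.18), while the other HBEGF features stand at 0.17 and 0.57. The lowest points are betacellulin and EGF features.

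Epidermal and neural crest markers were read beside these receptors, since the family is active in both tissues. Of 8 epidermal markers 6 were measured. Of these, 2 rose (cdh1, the E-cadherin gene, and cldn7b, a claudin gene), 0 fell and 4 did not pass. At an unadjusted p of 0.05, limma gave 3 of the 6 as higher and 1 as lower. Over all named genes the same rule takes 3184 of 15358 as higher and 2559 as lower. Under median centring cldn7b did not pass (limma adjusted p = 0.0538). With the values as deposited, 1 of 3 features of the keratin gene krt5, not its brightest, was past the threshold as lower. The summed level of the 6 was 16.98 and 16.99 (log2) in the transgenic arrays and 17.02 and 17.00 in the wild-type arrays. The sum is taken on the linear scale, so krt5 and the keratin gene krt4, the brightest of the 6, weigh most. Both of these, and tp63, were lower on both transgenic arrays, while cdh1, cldn7b and cldne were higher. Of 7 neural crest and glial markers 3 were measured, of which foxd3 and plp1a did not pass, though each was lower on both transgenic arrays. At an unadjusted p of 0.05, limma gave 0 of the 3 as higher and 2 as lower. The brighter feature of mitfa, the melanocyte factor gene, fell by 0.75 ± 0.14 (limma adjusted p = 0.03). It was the only 1 of the 2 mitfa features past the threshold. The summed level of the 3 markers was 12.53 on both transgenic arrays and 12.88 and 12.94 on the wild-type arrays. Both erbb3b features were higher in the transgenic arrays. All 3 lens markers were measured, of which 1 fell: foxe3, dim on both transgenic arrays (-1.55 ± 0.16, limma adjusted p = 0.0108). The only 1 of 4 endothelial markers measured, the cadherin gene cdh5, differed by 0.82 ± 0.25 (limma adjusted p = 0.0818). The part of these tissues in the results was not tested. Markers of muscle, blood, leukocytes and nervous tissue were above the dim range on at least 1 array. Of 4 heart markers 3 were measured: myl7 was dim on all 4 arrays, while tnnt2a and nppa were above the dim range on every array. The tnnt2a feature was lower on both transgenic arrays (-0.56 ± 0.14, limma adjusted p = 0.0549). The nppa feature was higher on both (0.41 ± 0.16, limma adjusted p = 0.134), and neither passed.

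Of the remaining EGF-like ligands, 7 features of EGF, betacellulin and neuregulin-1 were followed. Only 2 of 11 listed ligand genes had a feature by name. Epigen and the neuregulins other than neuregulin-1 had none, and features with their ortholog names were not looked for, so these ligands are not covered here. The betacellulin gene btc and neuregulin-1 gene nrg1 came from a fixed list of pathway genes, and the features with ortholog names alone were added after their values were seen. Betacellulin binds EGFR and ERBB4. Feature NM_001044764 of btc fell by 1.64 ± 0.25, or 3.12-fold (limma adjusted p = 0.0209), from 10.23 and 9.78 in the wild-type arrays to 8.61 and 8.12 in the transgenic arrays. The brighter btc feature was lower on both transgenic arrays without passing (-1.30 ± 0.34, limma adjusted p = 0.0601). It passed with the replicate number as a block (limma adjusted p = 0.0307). It also passed under quantile normalization, median centring, an intensity trend and either filter on low features, at adjusted p between 0.0212 and 0.0484 in limma. It did not pass with a robust prior or with log2(value + 50) (limma adjusted p = 0.0638 and 0.0601), and was -0.83 without transgenic replicate 2. A feature annotated BTC (2 of 2) fell by 0.99 ± 0.14 (limma adjusted p = 0.018).

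EGF is the ligand that gave the family its name. Its feature, NM_205731, read 9.12 and 9.22 in the transgenic arrays and 10.13 and 10.43 in the wild-type arrays. It fell by 1.11 ± 0.17, or 2.16-fold (limma adjusted p = 0.0208). Thus the EGF feature, the dimmer btc feature and BTC (2 of 2) passed as lower. The brighter btc feature, which is the one taken for the list of pathway genes, did not pass. On the same arrays HBEGF feature ZV700S00001990 passed as higher and HBEGF feature BC066705.1 did not pass.

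Neuregulin-1 is a ligand of ErbB3 and ErbB4. The nrg1 feature read 11.26 and 11.28 in the transgenic arrays and 10.39 and 10.42 in the wild-type arrays. It rose by 0.86 ± 0.14, or 1.82-fold (limma adjusted p = 0.022), with replicates within hundredths of a log2 unit in both genotypes. A pair of NRG1 features without a zebrafish symbol were higher on both transgenic arrays without passing, at 0.59 ± 0.15 for ZV700S00000619 (limma adjusted p = 0.0532) and 0.69 ± 0.33 for TC242672 (limma adjusted p = 0.197). The former passed with features below the 25th percentile left out (limma adjusted p = 0.0306) and with log2(value + 50) (limma adjusted p = 0.0361). It did not pass under quantile normalization, median centring or an intensity trend, at adjusted p between 0.058 and 0.072 in limma. Nor did it pass with a robust prior or the replicate number as a block (limma adjusted p = 0.0555 and 0.0632). The former was 0.51 without wild-type replicate 1 and 0.68 without wild-type replicate 2. The latter was 0.29 without wild-type replicate 1 and 1.08 without wild-type replicate 2.

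Other genes of the pathway were taken from a list of 72, of which 34 had a feature by name. By the brightest feature of each gene, 8 rose, 3 fell and 23 did not pass, beside 17.9% past the threshold over all named genes, 10.4% higher and 7.49% lower. Their median log2 fold change was 0.24, against 0.02 over all named genes. As for the family and every other feature, the calls did not hold without either transgenic array in turn.

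Genes of ligand release went both ways. Of 6 sheddase and cofactor genes measured, 1 rose and 3 fell. The inactive rhomboids known as iRhoms bring the sheddase ADAM17 to the cell surface in mammals, and the paralogs of iRhom1 went opposite ways: rhbdf1a rose by 0.77 ± 0.14 and rhbdf1b fell by 0.88 ± 0.16 (limma adjusted p = 0.0283 and 0.0297). The values of rhbdf1a were 11.66 and 11.67 in the transgenic and 10.86 and 10.94 in the wild-type arrays, and those of rhbdf1b were 8.49 and 8.21 against 9.22 and 9.23. The rhomboid protease gene rhbdl2 fell by 0.78 ± 0.16, with 1 of its 2 features past the threshold, and both features of its relative rhbdl3 fell, the brighter by 0.96 ± 0.15. The metalloprotease gene adam10b differed by 0.37 ± 0.16 (limma adjusted p = 0.159).

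Among 11 adaptor and exchange factor genes, 2 rose, 0 fell and 9 did not pass, with the same counts at an unadjusted p of 0.05 in limma. That unadjusted rule takes 3184 of all 15358 named genes as higher and 2559 as lower. The gene grb7, for an adaptor that binds ErbB2 in mammals, rose by 1.89 ± 0.32, or 3.7-fold (limma adjusted p = 0.0254), from 6.44 and 7.32 in the wild-type arrays to 8.64 and 8.89; the lowest of these values was dim. The adaptor gene shc2 rose by 1.28 ± 0.21, from 8.25 and 8.72 to 9.69 and 9.84 (limma adjusted p = 0.0232). The adaptor gene crkl differed by -0.10 ± 0.14 (limma adjusted p = 0.632).

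Of 12 genes of the lipid kinase, STAT and other downstream branches, 4 rose, 0 fell and 8 did not pass. At an unadjusted p of 0.05 limma gave 5 higher and 0 lower, beside 3184 higher and 2559 lower of all 15358 named genes. The focal adhesion kinase gene ptk2aa rose by 1.45 ± 0.29, and vav2 rose by 1.24 ± 0.18 (limma adjusted p = 0.0352 and 0.019). The kinase gene akt1 rose by 1.01 ± 0.24 (limma adjusted p = 0.0494), which did not pass under median centring (limma adjusted p = 0.0504) or with a robust prior (limma adjusted p = 0.0525), and both features of stat3 rose, the brighter by 0.93 ± 0.15. The brightest feature of ptk2ab, the paralog of ptk2aa, differed by 0.04 ± 0.15 and changed sign under median centring (-0.05), while 1 of its 4 features passed upward. Of 13 receptor inhibitor and ubiquitin ligase genes listed, only the ubiquitin ligase genes cbl, cblb and cbll1 had a feature by name. The rest of that list, such as errfi1b and the lrig and socs genes, had none. Of the 3 measured, 0 rose and 0 fell. At an unadjusted p of 0.05, limma gave 1 higher and 0 lower, to be read against the same counts over all named genes. The ubiquitin ligase gene cblb, a negative regulator of activated receptors that was picked out after its values were seen, differed by 0.61 ± 0.23 (limma adjusted p = 0.123), and cbll1 by -0.27 ± 0.16 (limma adjusted p = 0.272).

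**Figure D3:**
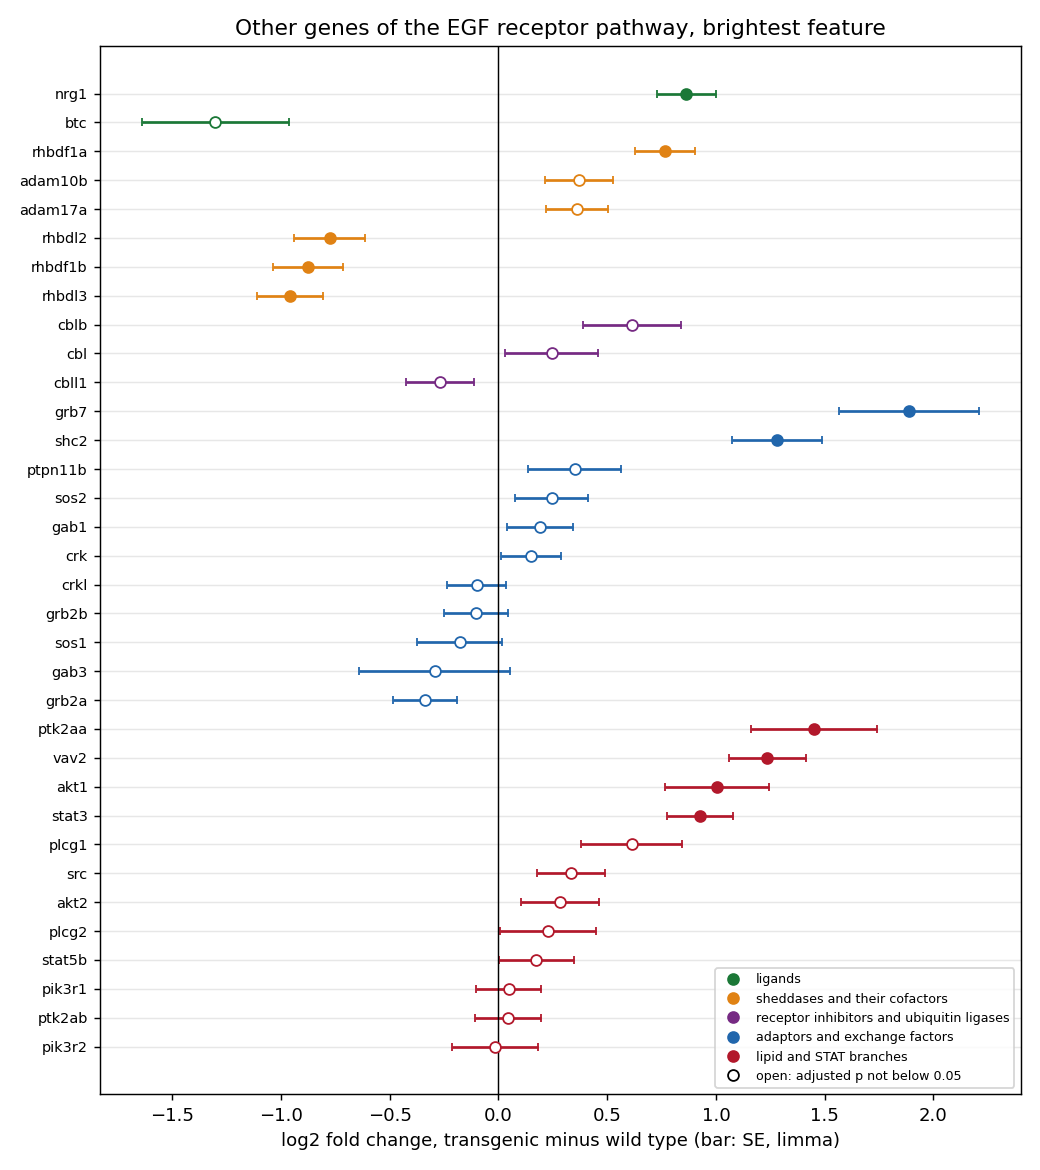
Log2 fold change, transgenic minus wild type (x axis), with its SE from limma as a bar, for the brightest feature of each of 34 other EGF receptor pathway genes, coloured by role. Filled points passed an adjusted p of 0.05; the 8 that rose lie between 0.77 (rhbdf1a) and 1.89 (grb7), and the 3 that fell are the rhomboid family genes rhbdf1b, rhbdl2 and rhbdl3.

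The authors' deposited table was set beside these calls. Its mean log2 fold changes equal the differences of the group means within 2.85e-08, while its q-values are below 0.05 for 12 of the 14 member features, 10 higher and 2 lower. Over all features of the authors' deposited table the same rule takes 34.9% as higher and 32.7% as lower, so the members' share is to be read against that. The erbb2 feature has a q-value of 0.000271 and the tgfa feature of 0.00315 in the authors' deposited table, and neither passed in limma.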

How the data were processed

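Per the labels, Trizol was used to extract total RNA, and Roche NimbleGen did the Cy3 labelling. The authors deposited a table of log2 expression values (log base inferred from maxima near the limit of a scanner of 16 bits) and, per the file headers, a table of mean log2 fold change and q-value per feature. Scanner, probe summarisation, background correction, normalization and the test behind the q-value are all among the steps not given in the sources used here. A companion copy of the latter table was not used. No slide or scan date is given, so batches could not be examined.

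Names came from the authors' annotation, updated through a RefSeq gene table (GRCz12tu). Fold changes were estimated with lmFit and eBayes of limma 3.58.1 (R 4.3.3) over all 37176 features, with Benjamini-Hochberg adjustment and a threshold of 0.05; with 2 residual degrees of freedom and 2.92 from the prior, an SE reflects all features as well as these arrays. The step was tested on simulated data. The replicates are separate pools per the design text. For each list gene the feature with the highest mean was used, every pathway gene past the threshold was named, and so were the 4 brightest of them without a call. A planned ranking of genes by likeness of level is not reported, since levels of different probes are not comparable. The members and lists were chosen with earlier results of these data known. The precision is limited by the number of arrays.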

Additional observations from a re-analysis of the deposited data

How the results depend on the processing

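The counts over all features were 6193 higher and 5054 lower at an adjusted p of 0.10 and 12981 and 12169 with the deposited q-values; leaving out 1 array gave 0 to 7047 higher and 0 to 5116 lower. The members counted 6 higher and 0 lower, which became 10 and 2 with the deposited q-values and 3 and 1 with features below the median left out, where only 7 of the 14 were tested. A single member was lower at an adjusted p of 0.10 (tgfa) and with an intensity trend (EGFR feature ZV700S00003423), 1 in each case. Leaving out 1 array gave 0 to 9 higher members. The other pathway genes counted 20 higher and 7 lower with the deposited q-values, 5 lower with every feature of each gene, and 0 to 11 higher and 0 to 4 lower with 1 array left out; each count of 0 arose without a transgenic array. With the replicate number as a block, 7 members were higher and 0 lower, the added call being erbb3b feature OTTDART00000027053; the numbers share no stated source, and deviations of same-numbered arrays correlated at 0.21. The block changed no other member's call, and among the other features followed through the settings it added only the brighter btc feature. Not followed singly were markers without a call, cbl, cblb, and the dimmer features of list genes other than btc. Among features without a call, signs turned with 1 array left out, over ranges of -0.085 to 0.31 in EGFR feature TC255373, -0.045 to 0.13 in ptk2ab, -0.25 to 0.78 in EGFR (2 of 2) feature ENSDART00000079483, -0.13 to 0.15 in ERBB4 (1 of 2), -0.012 to 0.83 in LOC566224 and -0.32 to 1.46 in si:ch211-101j19.2. Scaling turned ptk2ab (-0.050, median centring) and ERBB4 (1 of 2) (-0.084 under median centring, -0.081 under quantile normalization). The causes were not tested. Over all features, replicate differences had an SD of 0.278 (log2) for the transgenic pair and 0.457 for the wild-type pair, and a lone array is assumed to vary like the other genotype. Background was not measured in the files, so what the dim tgfa, TC255373 and TC265856 features can show is limited.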
